A study of Mus musculus with 15 samples.

Results

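The genes described here build the nuclear pore or carry cargo through it, and they were measured in the striatum of Huntington's disease knock-in mice. They were chosen by symbol alone: protein-coding genes named Nup followed by a digit, or Kpna, Kpnb, Tnpo, Ipo or Xpo followed by a digit, together with Ran, Rangap1, Ranbp1, Ranbp2, Rcc1, Tpr, Pom121 and Ndc1. The rule found 51 genes among the 21983 protein-coding genes in the table of read counts, which lists 54232 gene identifiers in all. Striatal RNA came from 15 mice aged 6 months, of the genotypes KI-96 (n = 4), E1 (n = 4) and WT (wild type, n = 7), with 1 library per mouse. The labels name no treatment, and they give KI-96 and E1 as genotype names without stating the allele or repeat length. The study's title concerns RAN translation, in which expanded repeats are translated without a start codon; this process shares only its name with the small GTPase Ran, 1 of the genes described here.

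The nuclear pore complex is a ring-shaped channel through the nuclear envelope. Outer and inner rings form its scaffold, transmembrane proteins anchor it, and proteins rich in phenylalanine-glycine (FG) repeats fill the channel and bind passing receptors. Importins and exportins carry proteins and RNA across, and the GTPase Ran sets the direction: its exchange factor Rcc1 keeps Ran bound to GTP in the nucleus, while Rangap1 promotes GTP hydrolysis in the cytoplasm. In cell and animal models of Huntington's disease, mislocalized RanGAP1 and NUP62 proteins have been described, so those genes were followed in every comparison.

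Depth, as total counts, spanned 14678565 to 23373551 for KI-96, 18199927 to 19533231 for E1 and 17281603 to 26388542 for WT. The 10 markers of striatal spiny neurons were present in every library, with summed levels of 6361 to 10152 CPM (counts scaled to a common library size) in KI-96, 7470 to 11139.5 CPM in E1 and 6815 to 10633 CPM in WT. Reads of 4 Y-linked genes reached a summed 1 CPM in 0 of 4 KI-96 libraries, 0 of 4 E1 libraries and 6 of 7 WT libraries. Genotype and sex therefore cannot be told apart in the comparisons with WT, apart from what WT replicate 1 contributes. With the presence of Y-linked reads as a covariate, folds against WT compare the mutant libraries with WT replicate 1 alone. Values against WT given below with this Y-linked covariate rest on that library and are not estimates for the WT group. The 10 markers of cortical excitatory neurons summed to 1374 and 895 CPM in E1 replicates 2 and 3 and to 1221 CPM in WT replicate 3, the cortical-high libraries, against 116 to 242 CPM in the other 12 libraries. KI-96 replicate 3 stood apart from the other libraries among the pore and transport genes, and the folds it moves most are given below with and without it.

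Of the 51 genes, 49 had enough reads to be tested. The exceptions were Kpna7, an importin alpha of eggs and early embryos, with 4 reads in all 15 libraries, and Nup62cl, an X-linked relative of Nup62, with 81. Nup62cl was at 0.0546 to 0.167 CPM in KI-96, 0.213 to 0.337 CPM in E1 and 0.104 to 0.637 CPM in WT, where 1 read is worth about as much as the lowest value. Nup210l, a relative of the membrane protein Nup210, was tested on 209 reads and lay between 0.213 and 1.46 CPM. The remaining 48 genes were detected in every library. Exons of 10 members overlapped another gene on the same strand, most of all Ipo4 (55.3% of its exon length, with Gm49378) and Ranbp1 (16.9%, with Gm49776). Exons of 16 overlapped a gene on the other strand, none over 25%, with Pom121 highest at 11.9% (Nsun5), and reads there cannot be assigned for certain since it is not given whether counting used strand. A non-coding copy of Kpna2, Kpna2-ps, is also in the table and could share reads with it.

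Start-site regions were available from RefSeq (build GRCm38.p6) for 42 of the 51 genes, as 49 windows from 250 bases before to 50 bases after a start site. These windows were rich in CpG dinucleotides. They held a median of 28 CpG, against 18 in 16017 windows of all tested genes and 7 in 32851 windows of all genes, and 91.8% of them held at least 10, against 72.8% and 43.5%. To show the range, 3 windows are printed 5′ to 3′ on the strand of the gene, with every CpG in capitals. They belong to Ran, the member with the highest level (chr5:129019906-129020205, plus strand, 58 CpG), to Kpnb1, the importin beta that carries most classical cargo (chr11:97187843-97188142, minus strand, 35 CpG), and to Kpna7, nearly without reads (chr5:145009587-145009886, minus strand, 4 CpG; this window lies inside the gene as annotated for the counts).
Ran: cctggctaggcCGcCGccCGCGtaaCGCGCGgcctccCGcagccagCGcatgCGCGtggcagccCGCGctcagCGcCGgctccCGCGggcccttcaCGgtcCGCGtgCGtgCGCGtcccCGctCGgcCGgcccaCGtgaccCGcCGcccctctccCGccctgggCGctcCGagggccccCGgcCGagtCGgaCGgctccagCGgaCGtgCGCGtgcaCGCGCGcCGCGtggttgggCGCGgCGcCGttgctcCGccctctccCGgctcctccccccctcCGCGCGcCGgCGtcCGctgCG
Kpnb1: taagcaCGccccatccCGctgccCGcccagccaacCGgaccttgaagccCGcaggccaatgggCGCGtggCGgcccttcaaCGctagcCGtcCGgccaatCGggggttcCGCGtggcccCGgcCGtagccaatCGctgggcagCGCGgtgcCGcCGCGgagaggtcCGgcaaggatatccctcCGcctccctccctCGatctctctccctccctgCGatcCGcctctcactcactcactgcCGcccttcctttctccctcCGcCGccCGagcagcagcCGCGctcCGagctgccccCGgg
Kpna7: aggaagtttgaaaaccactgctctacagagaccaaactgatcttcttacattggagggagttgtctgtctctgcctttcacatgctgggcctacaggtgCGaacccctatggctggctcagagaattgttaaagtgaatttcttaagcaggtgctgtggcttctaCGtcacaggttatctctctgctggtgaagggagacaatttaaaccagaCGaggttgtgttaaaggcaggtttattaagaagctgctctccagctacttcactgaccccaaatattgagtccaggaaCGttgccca
CpG number and level did not go together throughout: the window of Nup62cl, with 81 reads, held 21 CpG, and the single window of Nup160, read in every library, held 6. Motifs were searched as exact letters on both strands. CGCATGCG, the core bound by NRF1, occurred in 10.2% of the members' windows (5 of 49: Nup107, Nup50, Nup62, Ran and Xpo5), against 3.24% of windows of tested genes and 1.87% of all windows. ATGGCGGC, a core bound by YY1, occurred in 14.3%, against 3.92% and 2.24%, and CCAAT in 51.0%, against 37.0% and 37.4%. The other motifs lay nearer to the tested genes: CCGGAA, the core bound by ETS factors, occurred in 24.5%, against 23.5% and 14.9%, GGGCGG, a GC box, in 65.3%, against 58.0% and 35.7%, and TATAAA in 10.2%, against 7.76% and 13.6%. Both longer cores contain CpG, in which these windows are rich, and a match is a description of letters, not of binding.

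Levels were compared between genes as CPM per kilobase of summed exon length, averaged over the 15 libraries. By pooled medians, the soluble carriers and the Ran cycle stood above the pore proteins: the median was 9.54 CPM per kilobase over 21 tested receptors, 24.8 over the 4 Ran cycle genes and 4.34 over 23 pore proteins. Export receptors alone had a median of 5.58, below those of the cytoplasmic filaments (7.12) and the nuclear basket (9.07). Over all 49 members it was 6.63, against 5.01 over 14770 tested protein-coding genes, and 30 of 49 members lay above that value. Differences in level between genes also carry the choice of isoforms, because exon length was summed over all annotated transcripts.

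Ran led in all 15 libraries, at 50.9 ± 7.78 CPM per kilobase in KI-96, 59.8 ± 3.50 in E1 and 55.0 ± 3.65 in WT (SD, n = 4, 4 and 7). Rangap1 came next in all 15 libraries, with a mean of 39.3, and the other genes of the cycle were Ranbp1 at 10.3, which helps dissociate exported complexes, and Rcc1, the lowest, at 3.38. Among import receptors Ipo13, which works in both directions, and Kpnb1 exchanged ranks 3 and 4 between libraries, with means of 29.8 and 26.7, and Ipo8 was lowest at 3.77. Among the importin alpha adaptors, which link classical cargo to Kpnb1, Kpna3 had 16.8 and Kpna2 5.19. Among exporters the range ran from 11.5 for Xpo1, the receptor of leucine-rich export signals, to 2.11 for Xpo4.

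Within the pore, the outer ring had the lowest median, 2.60 CPM per kilobase, from 1.11 for Nup37 to 8.25 for Nup85, both subunits of the same Y-shaped complex. The inner ring ran from 2.27 for Nup155 to 12.2 for Nup93, the membrane ring from 3.78 for Nup210 to 10.7 for Pom121, and the FG proteins of the channel from 4.18 for Nup98 to 8.17 for Nup62. Cytoplasmic filament genes ran from 4.16 for Nup214 to 16.2 for Ranbp2, a large FG protein that anchors Rangap1 at the pore. Basket genes lay close together, between 7.88 for Nup153 and 10.2 for Tpr. The plot of levels by role shows that the groups overlapped for nearly every gene while the genes themselves spanned more than an order of magnitude.

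**Figure D1:**
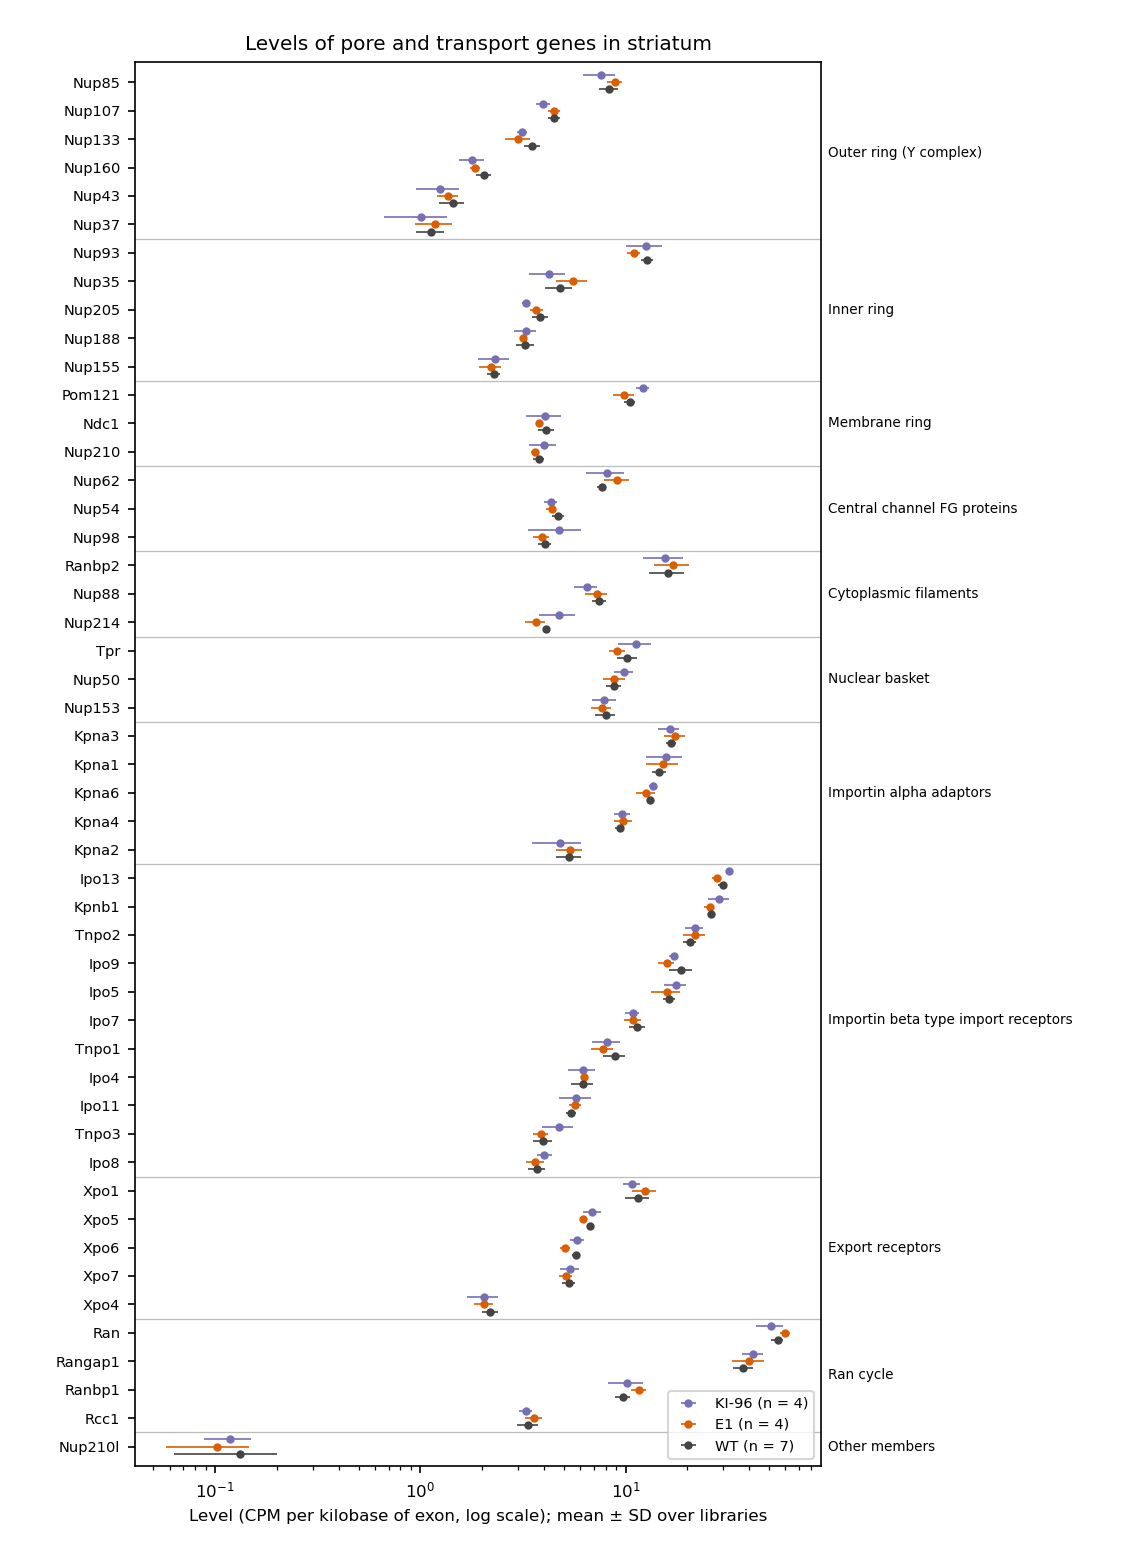
Levels of the 49 tested genes by role, as CPM per kilobase of exon on a log axis, with points for the mean and lines for the SD over libraries of KI-96 (n = 4), E1 (n = 4) and WT (n = 7). Ran is highest at 55.2 on average, Nup210l lowest at 0.121, and the 3 genotypes lie close together within each gene.

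The variation between animals was small. For the 46 members with a mean of at least 10 CPM the median biological coefficient of variation estimated by edgeR was 0.124, against 0.142 over 10208 genes at that level, and 39 of the 46 lay below 0.142. Among these 46 members the smallest spread within a group was that of Ipo13 in KI-96, at 134 ± 1.68 CPM (SD, n = 4), a coefficient of variation of 1.25%.

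In E1 against WT, 0 of 49 members passed the threshold of an edgeR adjusted p under 0.05, where 1 of 18278 tested genes (0.00547%) did. DESeq2 and limma-voom also called 0 members. Log2 fold changes were positive for 19 and negative for 30, with a median of -0.04, against -0.00 over all tested genes. With the 3 cortical-high libraries left out, 9 were positive and 40 negative (median -0.10), and without E1 replicate 3 the split was 13 and 36 (median -0.095). Leaving aside Nup210l, they ran from -0.24 for Ipo9 to 0.26 for Ranbp1. At an unadjusted p under 0.05 there were 4 members, or 8.16%, against a background of 8.75%: Ranbp1 above, and Xpo6, Ipo9 and Nup133 below. The 95% interval lay within 1.5-fold in either direction for 48 of 49 genes, all but Nup210l. All E1 libraries lay below all WT libraries for Nup93 and Xpo5 (background 0.799%) and above them for 0 members (background 0.892%). Counts from bulk tissue cannot tell fewer cells of a type from less RNA per cell.

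In KI-96 against WT the members again gave 0 calls by edgeR, DESeq2 and limma-voom, and edgeR called 0% of all tested genes. Fold changes were positive for 25 and negative for 24, with a median of 0.00, against -0.01 over all genes; scaled by library totals alone, 18 were positive and the median was -0.04, without KI-96 replicate 3 it was 19 with -0.03, and with the Y-linked covariate 31 with 0.02. The range was -0.23 for Nup205 to 0.26 for Tnpo3. Pom121 and Tnpo3 above and Nup205 below had an unadjusted p under 0.05, or 6.12% of members against a background of 10.5%. Intervals lay within 1.5-fold for 47 genes, the exceptions being Nup210l and Nup37. For 0 members did the groups separate, against a background of 0.635% for higher and 0.651% for lower.

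KI-96 against E1 compared the mutants directly, without the difference in Y-linked reads. Both earlier comparisons share their libraries with this one, so its values are not independent of them. Again 0 members were called by edgeR, DESeq2 or limma-voom, and edgeR called 0% of all genes. Here 27 fold changes were positive and 22 negative, with a median of 0.04 against -0.00 over all genes, and the median was -0.02 without KI-96 replicate 3, with 24 positive, and 0.10 without KI-96 replicate 4, with 32 positive. Leaving out the cortical-high libraries, which lie in E1 and WT only, also raised the median and the number of positive members. At an unadjusted p under 0.05 there were 8 members, or 16.3%, against a background of 14.3%. The positive ones were Pom121, Nup214, Ipo13, Xpo6, Tpr and Tnpo3, and the negative ones Nup35 and Ran. Ipo13 was the single member whose KI-96 libraries all lay above all E1 libraries (background 2.29%), and 0 lay entirely below (background 2.5%). Intervals lay within 1.5-fold for 44 genes, and Nup210l, Nup214, Nup35, Nup37 and Nup98 reached further.

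**Figure D2:**
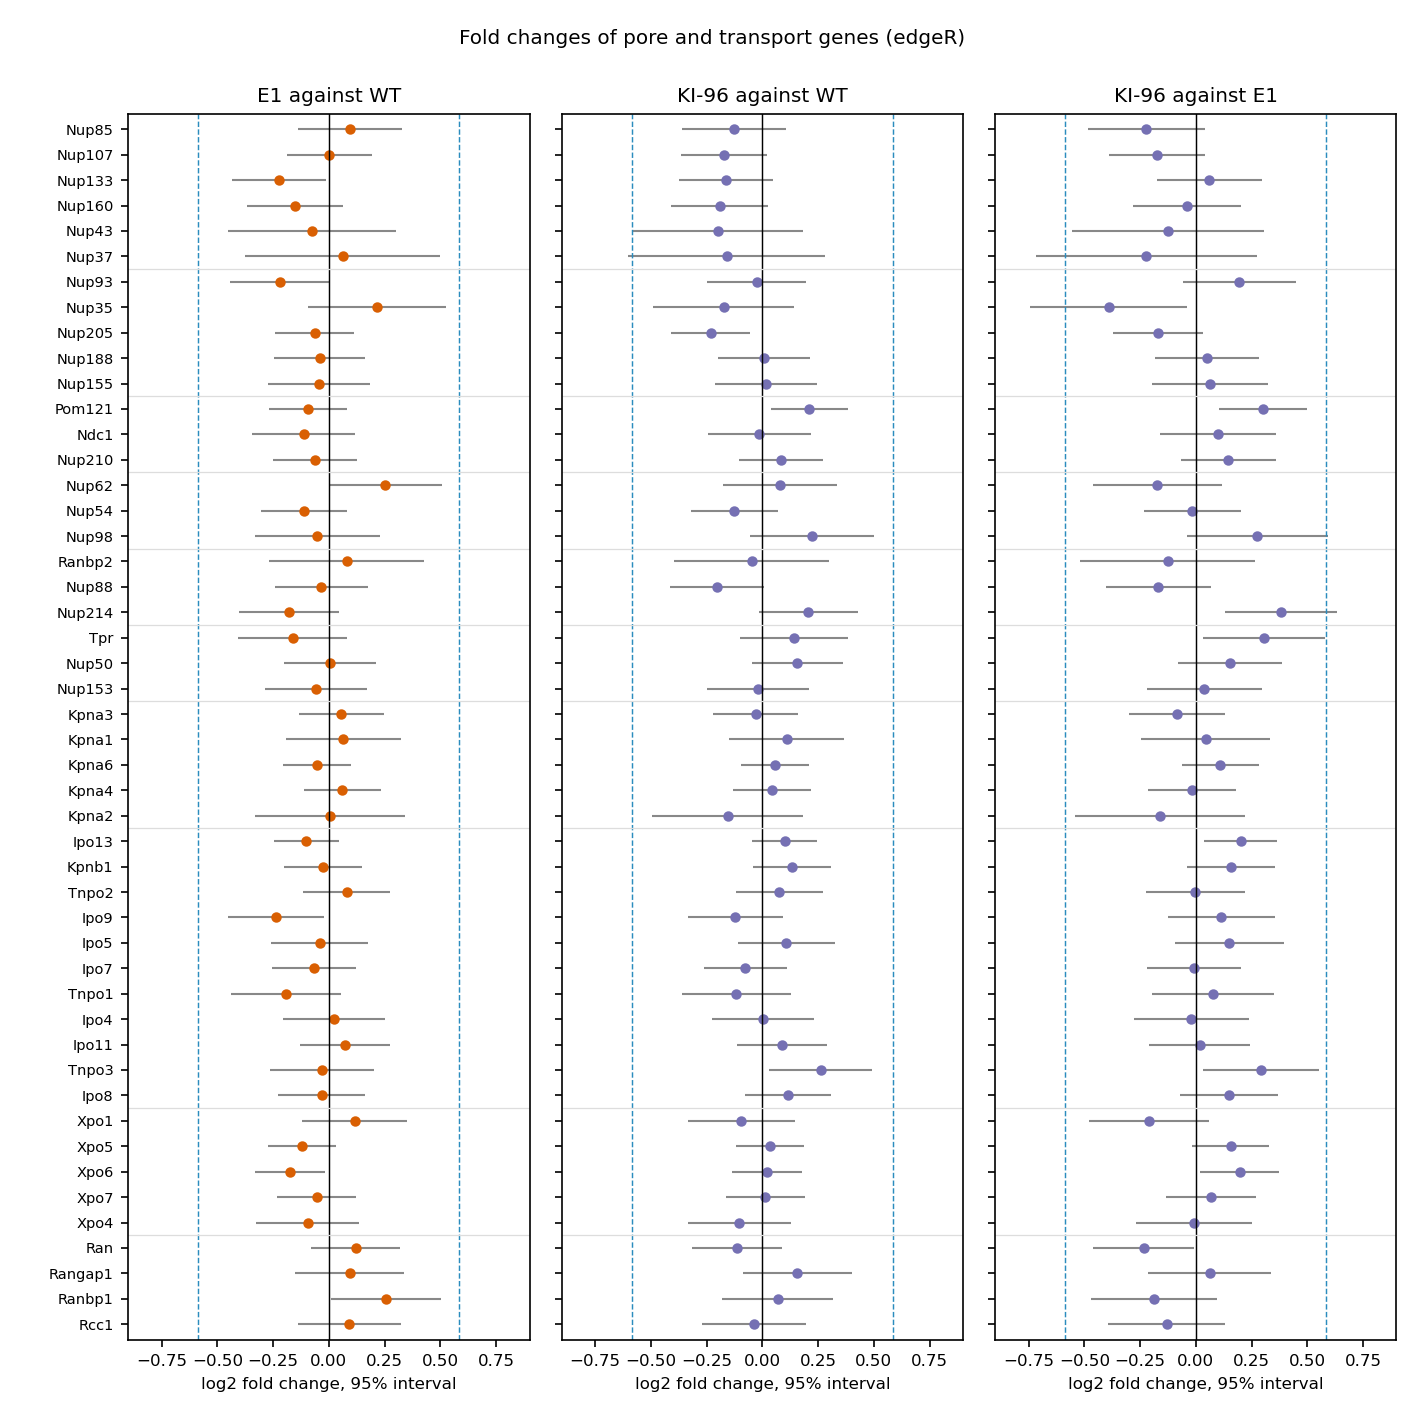
Log2 fold changes with 95% intervals for 48 tested genes in 3 comparisons, ordered by role as in the plot of levels, with dashed lines at 1.5-fold in either direction; Nup210l is left out because its interval is wider than the axis. Intervals leave out 0 for 4 genes in E1 against WT, 3 in KI-96 against WT and 8 in KI-96 against E1. Most stay between the dashed lines. KI-96 against E1 has the widest interval, -0.72 to 0.28 for Nup37, and its intervals reach from -0.74 for Nup35 to 0.64 for Nup214.

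Ran (chromosome 5, 129020069 to 129024323, build GRCm38) had 151, 136, 105 and 146 CPM in the KI-96 libraries and 148, 162, 169 and 154 CPM in the E1 libraries. The lowest, median and highest WT libraries had 131, 145 and 161 CPM. KI-96 replicate 3 was the lowest of all 15, and the 3 groups overlapped. The log2 fold change was -0.23 in KI-96 against E1 (SE 0.11, edgeR adjusted p = 0.334), -0.13 without KI-96 replicate 3, and 0.12 in E1 against WT (SE 0.09, adjusted p = 0.709), 0.06 with the 3 cortical-high libraries left out.

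Rangap1 (chromosome 15, 81704248 to 81745530) had 239.6, 196, 186 and 191 CPM in KI-96 and 164, 223, 225 and 167 CPM in E1, with 155, 179 and 207 CPM as lowest, median and highest in WT. The high E1 libraries, replicates 2 and 3, and the highest WT library, replicate 3, were the 3 libraries with high cortical markers; the part of cortical tissue in the result was not tested. Log2 fold changes were 0.16 in KI-96 against WT (SE 0.12, edgeR adjusted p = 0.651), 0.09 in E1 against WT (SE 0.12, adjusted p = 0.817) and 0.06 between KI-96 and E1 (SE 0.13, adjusted p = 0.852). Without the 3 libraries the value for E1 against WT was -0.11, and with the Y-linked covariate it was -0.04; left out singly, E1 replicates 1 to 4 gave 0.17, 0.02, 0.01 and 0.16, and WT replicates 2 and 6 gave 0.06 each. For KI-96 against WT it was 0.07 without KI-96 replicate 1 and 0.02 with the Y-linked covariate, and for KI-96 against E1 it was -0.03 without KI-96 replicate 1, -0.01 without E1 replicate 1 or 4, and 0.30 without the 3 libraries.

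Ranbp1 (chromosome 16, 18239784 to 18248732) had 17.5, 19.8, 12.3 and 18.1 CPM in KI-96, 17.0, 19.4, 20.5 and 20.3 CPM in E1, and 14.3, 16.1 and 18.0 CPM as lowest, median and highest in WT. Of the E1 libraries 3 lay above every WT library. The log2 fold change in E1 against WT, 0.26 (SE 0.12, edgeR adjusted p = 0.551), was the largest positive value of that comparison. For E1 against WT the fold changes of all 4 Ran cycle genes were positive, from 0.09 to 0.26, and 0 of the 4 passed the test. That count was 3 of 4 with the 3 cortical-high libraries left out and with the Y-linked covariate.

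Nup62 (chromosome 7, 44816088 to 44830812), an FG protein of the central channel, had 27.4, 25.01, 16.2 and 23.9 CPM in KI-96, 25.8, 28.8, 28.6 and 21.0 CPM in E1, and 20.3, 21.9 and 23.5 CPM as lowest, median and highest in WT. In each mutant group 3 of 4 libraries lay above all WT libraries, while KI-96 replicate 3 lay below all of them. Log2 fold changes were 0.25 in E1 against WT (SE 0.12, edgeR adjusted p = 0.572), 0.08 in KI-96 against WT (SE 0.12, adjusted p = 0.843) and -0.17 between KI-96 and E1 (SE 0.14, adjusted p = 0.566). Without KI-96 replicate 3 the last 2 values were 0.22 and -0.04, and with the 3 cortical-high libraries left out the value for E1 against WT was 0.11 and that for KI-96 against E1 was -0.02. Left out singly, KI-96 replicates 1 and 2 gave -0.01 and 0.04 in KI-96 against WT, and KI-96 replicate 1 and E1 replicate 4 gave -0.26 each in KI-96 against E1.

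Nup98, an FG protein that also binds messenger RNA export factors, had 62.0, 50.3, 82.5 and 42.9 CPM in KI-96 against 44.7, 52.6 and 54.9 CPM as lowest, median and highest in WT. KI-96 replicate 3 was the highest and KI-96 replicate 4 the lowest of these libraries. The log2 fold change of 0.22 (SE 0.13, edgeR adjusted p = 0.565) was 0.02 without replicate 3, 0.35 without replicate 4 and 0.11 with the Y-linked covariate.

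The plot of levels per library shows 12 of the tested genes as examples.

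**Figure D3:**
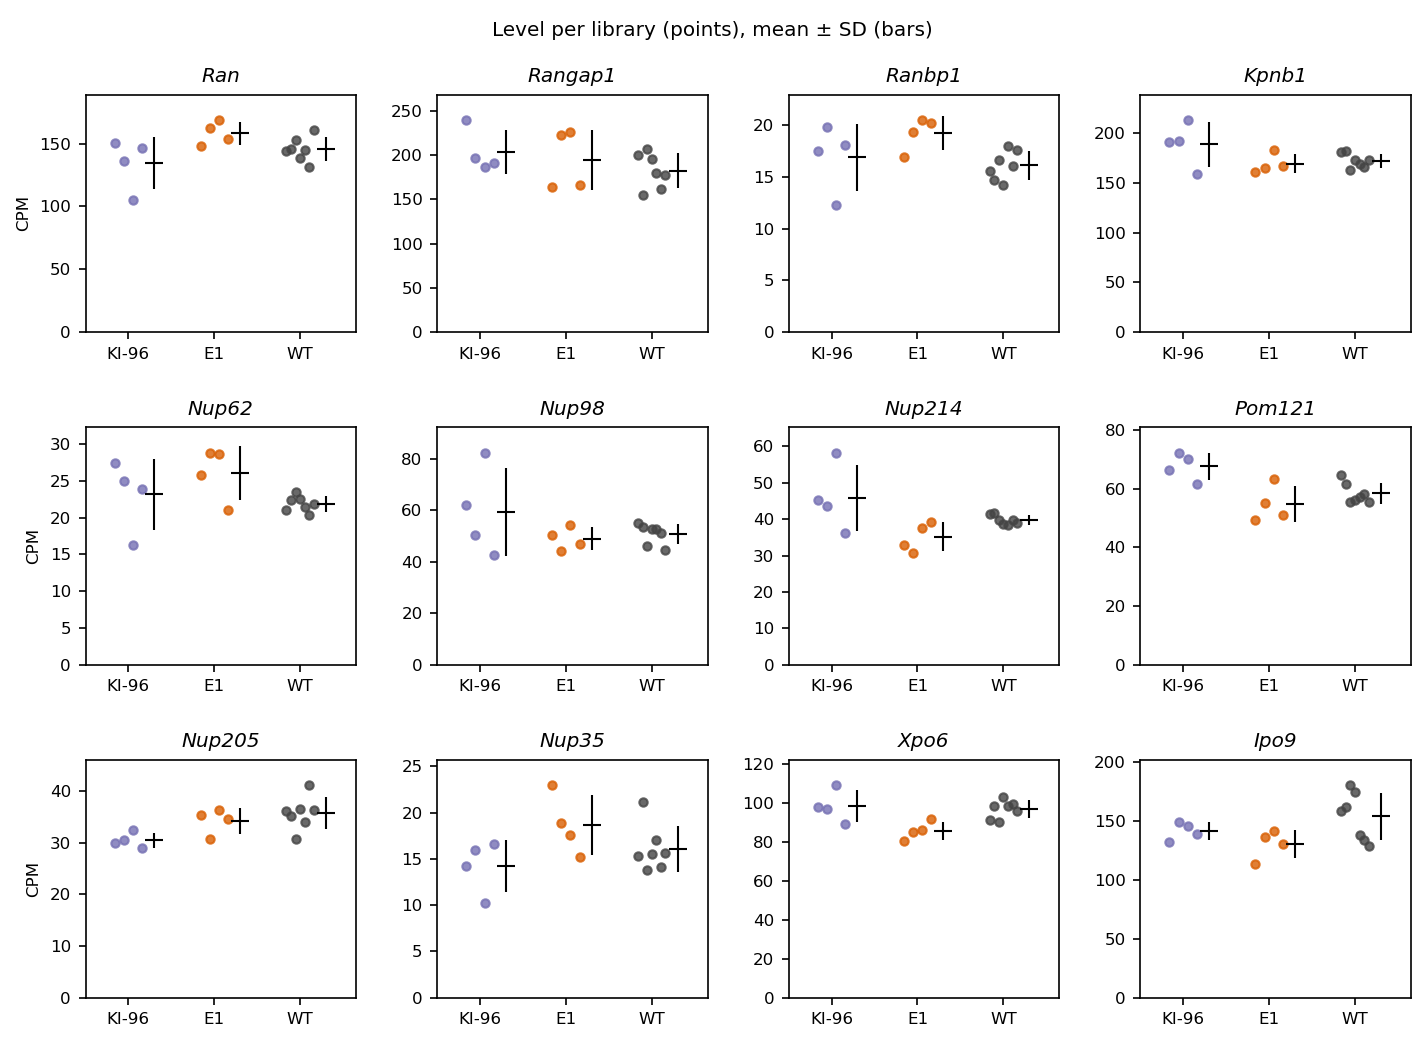
CPM of 12 genes in each library (points) with the mean and SD beside them (bars), for KI-96 (n = 4), E1 (n = 4) and WT (n = 7), on axes that start at 0. KI-96 replicate 3 is the low point for Ran (105 CPM) and Nup62 (16.2 CPM) and the high point for Nup98 (82.5 CPM) and Nup214 (58.3 CPM), and Pom121 in KI-96 lies at 61.5 to 72.3 CPM, above most WT and E1 libraries.

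Pom121 (chromosome 5, 135376141 to 135394546), a transmembrane protein that anchors the pore, had 66.6, 72.3, 70.1 and 61.5 CPM in KI-96 and 49.5, 55.3, 63.3 and 51.2 CPM in E1. The lowest, median and highest WT libraries had 55.4, 57.2 and 64.7 CPM. Of the KI-96 libraries 3 lay above every E1 and WT library, and KI-96 replicate 4 overlapped both. Its adjusted p was the smallest of any member in KI-96 against E1, with a log2 fold change of 0.30 (SE 0.09, edgeR adjusted p = 0.220), and DESeq2 gave 0.31 (adjusted p = 0.0742). Without KI-96 replicate 3 the edgeR value was 0.28, and without the cortical-high libraries it was 0.42. Against WT the value was 0.21 (SE 0.08, edgeR adjusted p = 0.394), and 0.06 with the Y-linked covariate.

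Nup214 (chromosome 2, 31974436 to 32053975), the cytoplasmic filament protein that docks exporters, had 45.3, 43.5, 58.3 and 36.3 CPM in KI-96, 32.8, 30.8, 37.6 and 39.4 CPM in E1, and 38.4, 39.7 and 41.6 CPM as lowest, median and highest in WT. The KI-96 libraries spread widely and the WT libraries narrowly. In KI-96 against E1 the value on the log2 scale was 0.38 (SE 0.12, edgeR adjusted p = 0.222). It was 0.24 (adjusted p = 0.434) without KI-96 replicate 3 and 0.48 (adjusted p = 0.0541) without KI-96 replicate 4, the closest any member came to the threshold in the 25 alternative settings. Against WT it was 0.21 (SE 0.11), and 0.07 without KI-96 replicate 3. Nup88, its partner on the filaments, gave -0.20 in KI-96 against WT (SE 0.10, edgeR adjusted p = 0.492), which was -0.13 without that library and -0.05 with the Y-linked covariate.

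The outer ring held 6 tested genes, and in KI-96 against WT all 6 had negative log2 fold changes, from -0.20 for Nup43 to -0.13 for Nup85, with a median of -0.17 and 0 calls. Nup107 (chromosome 10, 117750621 to 117792705) had 16.5, 15.2, 13.8 and 15.7 CPM in KI-96 and 15.2, 17.3 and 18.5 CPM as lowest, median and highest in WT, a log2 fold change of -0.17 (SE 0.09, edgeR adjusted p = 0.521). Nup160 (chromosome 2, 90677215 to 90736328) had 15.0, 14.5, 18.9 and 14.3 CPM in KI-96 and 15.1, 17.8 and 19.5 CPM as lowest, median and highest in WT; its value was -0.19 (SE 0.10, adjusted p = 0.523), -0.29 without KI-96 replicate 3 and -0.31 with the Y-linked covariate. All 6 stayed negative under every other scaling and with each library left out. At the closest, Nup37 came to -0.019, without KI-96 replicate 3, Nup85 to -0.038 and Nup43 to -0.048. With the Y-linked covariate 3 of the 6 were positive and the median was 0.01. In E1 against WT 3 of the 6 were positive (median -0.04), with a median of 0.13 under the Y-linked covariate and -0.11, with 1 of 6 positive, when the cortical-high libraries were left out. Nup133 (chromosome 8, 123897123 to 123949265) was the lowest there, with 17.7, 20.1, 24.4 and 22.2 CPM in E1 against 21.6, 24.7 and 27.9 CPM as lowest, median and highest in WT. Its log2 fold change of -0.22 (SE 0.10, edgeR adjusted p = 0.536) was -0.15 without E1 replicate 1 and -0.08 with the Y-linked covariate. In KI-96 against E1 Nup85 gave -0.22 (SE 0.13, edgeR adjusted p = 0.424), and -0.13 without KI-96 replicate 1.

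In the inner ring, Nup205 (chromosome 6, 35177421 to 35247596), a large scaffold protein, had 29.8, 30.5, 32.4 and 28.9 CPM in KI-96, 35.4, 30.6, 36.3 and 34.5 CPM in E1, and 30.7, 36.2 and 41.1 CPM as lowest, median and highest in WT. Of the KI-96 libraries 3 lay below every WT library. Its log2 fold change in KI-96 against WT was -0.23 (SE 0.08), with the smallest adjusted p of any member in that comparison (edgeR adjusted p = 0.365). Leaving out each library in turn gave -0.27 to -0.20, and set against E1 the KI-96 libraries gave -0.17 (SE 0.10, adjusted p = 0.420). Nup93 (chromosome 8, 94214564 to 94317227), which links the inner ring to the channel, had 50.2, 48.4, 42.5 and 45.1 CPM in E1 against 50.3, 53.2 and 61.6 CPM as lowest, median and highest in WT. Those groups did not overlap, though the nearest libraries were close to each other, and E1 against WT gave a log2 value of -0.22 (SE 0.11, edgeR adjusted p = 0.572). Nup35, which binds the membrane, had 14.2, 15.9, 10.2 and 16.6 CPM in KI-96, 23.0, 18.9, 17.6 and 15.2 CPM in E1, and 13.8, 15.5 and 21.2 CPM as lowest, median and highest in WT. It had the most negative value in KI-96 against E1, -0.39 (SE 0.17, edgeR adjusted p = 0.305), which was -0.26 without KI-96 replicate 3; in E1 against WT it had 0.22 (SE 0.15, adjusted p = 0.668), and 0.10 without E1 replicate 1.

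Basket genes had positive fold changes in KI-96 against E1 for all 3, from 0.04 for Nup153 to 0.31 for Tpr (SE 0.13, edgeR adjusted p = 0.303), the scaffold of the basket, and 2 of 3 were positive without KI-96 replicate 3, without E1 replicate 2 and with the cortical marker covariate. Tpr had 121, 117, 143 and 91.0 CPM in KI-96 against 87.2, 90.8, 107 and 97.3 CPM in E1, and its value was 0.20 without KI-96 replicate 3, the highest of these libraries. In KI-96 against WT the basket genes ran from -0.02 to 0.16, and Tpr, at 0.14, was at 0.036 without that library.

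The import receptors were the largest group, with 11 genes tested, of which 8 had positive fold changes in KI-96 against WT (median 0.09) and 3 in E1 against WT (median -0.03). With the Y-linked covariate these medians were 0.0081 and -0.096, and for E1 against WT it was -0.13, with 1 positive, without the cortical-high libraries, -0.095 without E1 replicate 3 and -0.0059, with 5 positive, without E1 replicate 1. Tnpo3 (chromosome 6, 29540827 to 29609887), which imports splicing factors of the SR family, had 68.0, 59.0, 73.0 and 48.1 CPM in KI-96, 49.2, 54.3, 53.5 and 45.5 CPM in E1, and 45.2, 50.8 and 61.7 CPM as lowest, median and highest in WT. KI-96 replicates 1 and 3 lay above all E1 and WT libraries, while replicate 2 lay among the WT libraries and replicate 4 among both groups. The log2 fold change in KI-96 against WT was 0.26 (SE 0.11, edgeR adjusted p = 0.412), 0.17 without KI-96 replicate 3, 0.36 (adjusted p = 0.0998) without KI-96 replicate 4, and 0.01 with the Y-linked covariate. Ipo13 (chromosome 4, 117894486 to 117914999) had 133, 135, 132 and 136 CPM in KI-96 against 120.1, 109, 115 and 123 CPM in E1, with 117, 126 and 133 CPM as lowest, median and highest in WT. The KI-96 and E1 libraries did not overlap, and the WT libraries overlapped both. The log2 fold change in KI-96 against E1 was 0.20 (SE 0.08, edgeR adjusted p = 0.279), and 0.14 without the cortical-high libraries. Ipo9 (chromosome 1, 135382312 to 135430499), an importer of histones, had 114, 137, 141 and 130.4 CPM in E1 against 129, 158 and 180.0 CPM as lowest, median and highest in WT, a log2 fold change of -0.24 (SE 0.10, edgeR adjusted p = 0.530). Its WT replicates 1 to 4 had 158, 161, 180.0 and 174 CPM. WT replicates 5 to 7 had 138, 134 and 129 CPM, within the range of the E1 libraries. Kpnb1 gave 0.13 (SE 0.08, edgeR adjusted p = 0.593) in KI-96 against WT, and 0.07 without KI-96 replicate 3. The log2 fold changes of the 5 importin alpha adaptors lay between -0.16 and 0.11 in all 3 comparisons. In KI-96 against WT, KI-96 replicate 3 carried both ends: without it Kpna2 was at 0.01 in place of -0.16 and Kpna1 at -0.02 in place of 0.11. In KI-96 against E1, Kpna2 was at 0.01 without it in place of -0.16, but the highest, Kpna6, was at 0.09 in place of 0.11. In E1 against WT 4 of the 5 were positive (median 0.06), 0 of 5 without the cortical-high libraries (median -0.12) and 1 of 5 without E1 replicate 3 (median -0.045).

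Among exporters, Xpo6 (chromosome 7, 126101715 to 126200501), which exports actin with profilin, had 97.9, 97.1, 109 and 89.3 CPM in KI-96 and 80.4, 85.0, 86.0 and 91.9 CPM in E1. The lowest, median and highest WT libraries had 90.6, 98.4 and 103 CPM. Of the E1 libraries 3 lay below every WT library. Its log2 fold change in E1 against WT was -0.18 (SE 0.07), with the smallest adjusted p of any member in that comparison (edgeR adjusted p = 0.530); with the Y-linked covariate it was -0.09. In KI-96 against E1 it was 0.20 (SE 0.08, adjusted p = 0.303). Xpo5 (chromosome 17, 46202782 to 46243598), the exporter of microRNA precursors, had 40.6, 42.6, 42.3 and 44.4 CPM in E1 and 45.0, 45.6 and 48.2 CPM as lowest, median and highest in WT. These libraries did not overlap, and the fitted difference was -0.12 on the log2 scale (SE 0.07, edgeR adjusted p = 0.636).

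KI-96 replicate 3 differed from the other libraries along the length of the genes. Its deviation from the WT mean, in log2 CPM, was negative for all 11 members with under 4000 bases of summed exon (median -0.39) and positive for 30 of 38 longer ones (median 0.20). The extremes were Kpna2 at -0.81, with 8.63 CPM against 14.2 to 17.6 CPM in the other KI-96 libraries, and Nup98 at 0.70. In that library 6 members deviated by over 0.5, against 0 or 1 in each of the other 14. Across the 49 members the deviation correlated with the log of exon length at Pearson r = 0.66 in KI-96 replicate 3 and at -0.53 to 0.44 in the other 14 libraries; across 14770 protein-coding genes r was 0.47 there and -0.21 to 0.13 elsewhere. These are descriptions across genes of 1 library, and genes are not independent replicates. KI-96 replicate 4 had the most negative r, -0.53, so the KI-96 libraries with the highest and lowest r belong to the same group. The part of this pattern in the fold changes above was not tested. The fold changes themselves correlated with length across the 49 members at r = 0.52 in KI-96 against E1, which was 0.23 without KI-96 replicate 3. In KI-96 against WT r was 0.27, and -0.18 without that library. In E1 against WT, which does not hold that library, r was -0.43. Across 14770 protein-coding genes r had the same signs: 0.26 in KI-96 against E1, 0.14 in KI-96 against WT and -0.15 in E1 against WT. Without KI-96 replicate 3, r over protein-coding genes was 0.10 in KI-96 against E1 and -0.03 in KI-96 against WT. Among the members, the deviations of E1 replicates 1 to 4 correlated with length at r = -0.36, -0.47, -0.10 and -0.34.

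**Figure D4:**
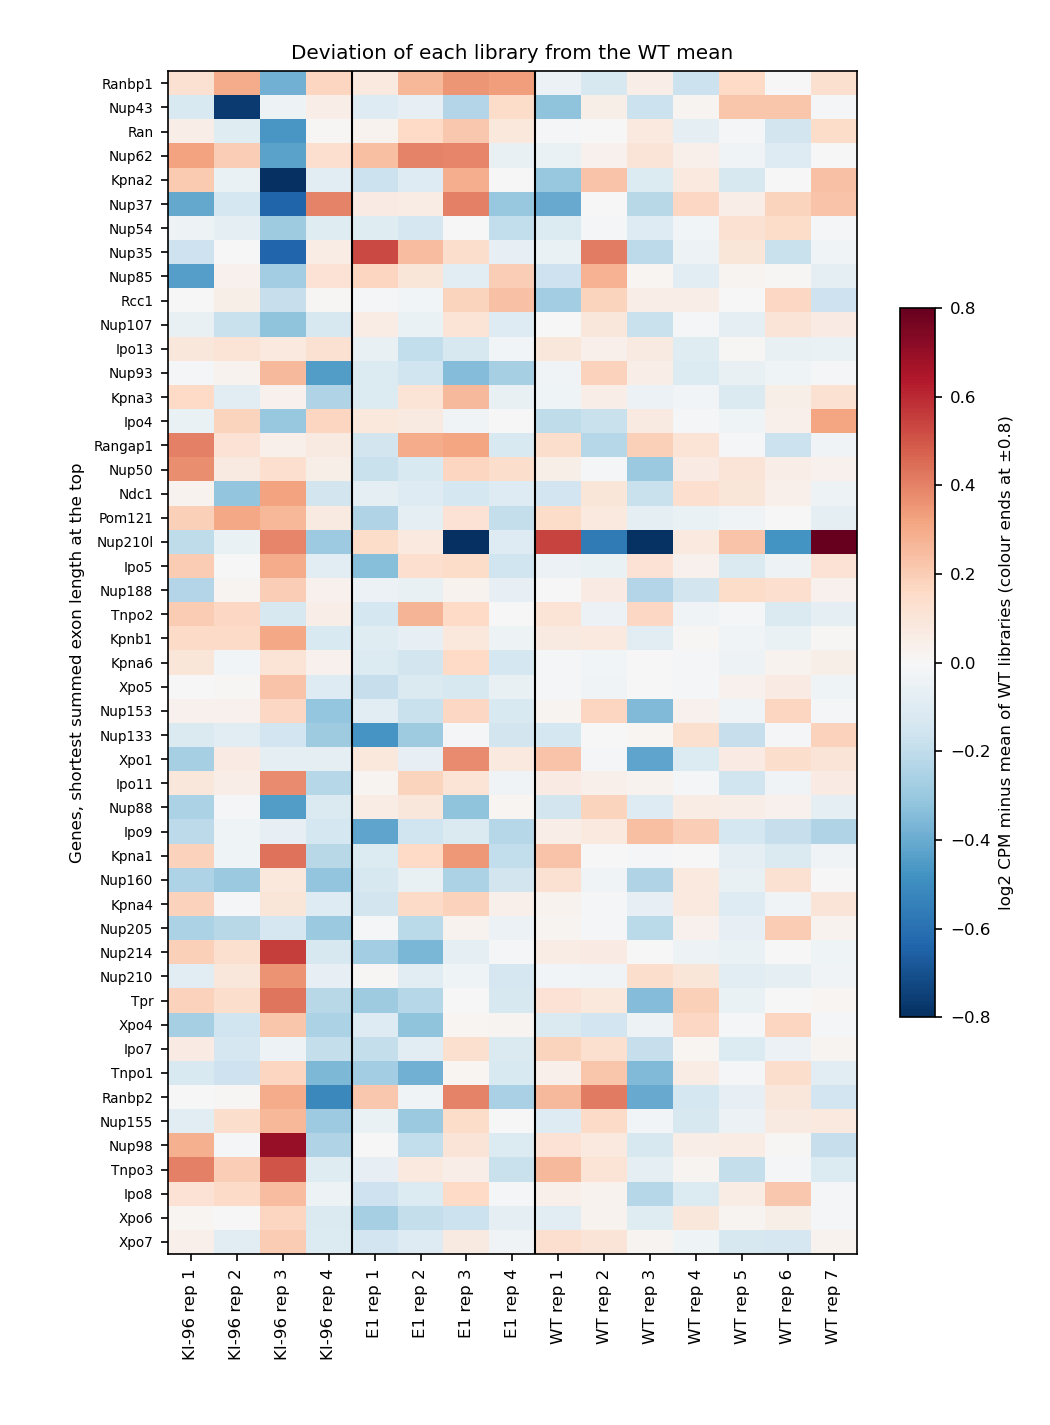
Deviation of log2 CPM from the WT mean for 49 genes (rows, shortest summed exon length at the top) in the 15 libraries (columns; KI-96, E1, WT), with colours ending at 0.8 in either direction. KI-96 replicate 3 is blue at the top and red further down, and Nup210l, measured on few reads, varies in every group.

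**Figure D5:**
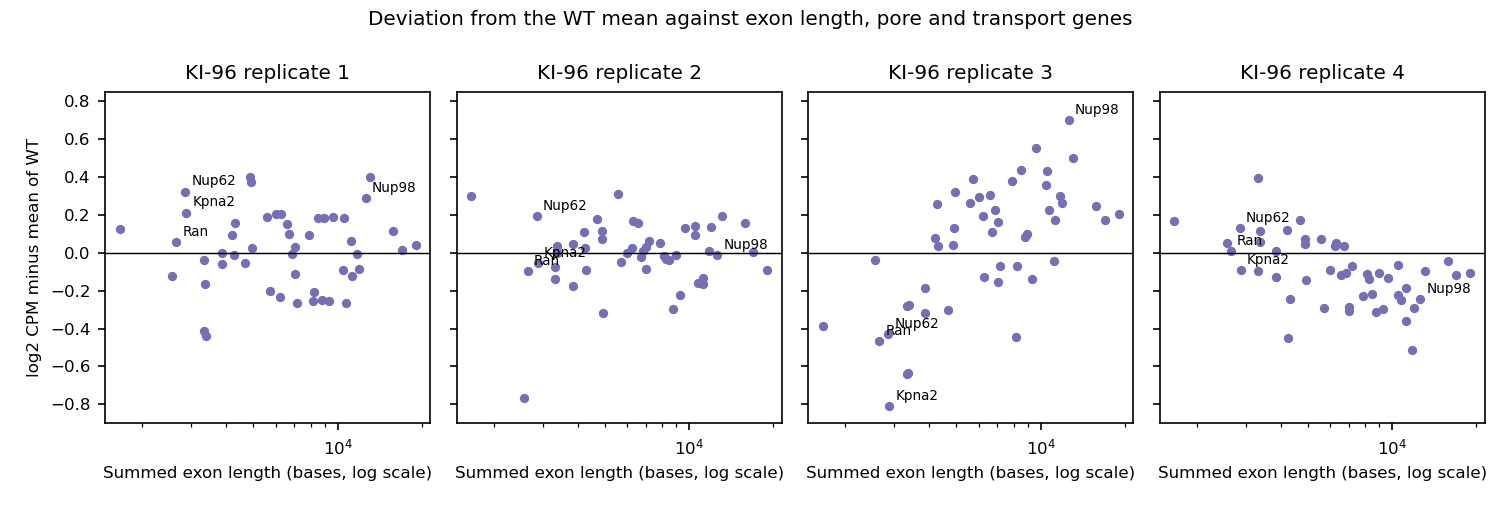
Deviation of log2 CPM from the WT mean against summed exon length (bases, log axis) for the 49 tested genes in each KI-96 library, with Ran, Kpna2, Nup62 and Nup98 named. KI-96 replicate 3 slopes upward (r = 0.66), KI-96 replicate 4 slopes downward (r = -0.53), and replicates 1 and 2 show no slope (r = 0.04 and 0.08).

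Further genes of the pore and of RNA export outside the symbol rule, such as the Y complex subunits Seh1l and Sec13, the exporter of importin alpha Cse1l and the messenger RNA exporter Nxf1, also gave 0 calls. Of 34 listed, 32 were tested, and 0 passed in any of the 3 comparisons by edgeR, with 0, 1 and 4 at an unadjusted p under 0.05 in E1 against WT, KI-96 against WT and KI-96 against E1, where 8.75%, 10.5% and 14.3% of all tested genes reached it. Their median log2 fold changes were 0.02, -0.04 and -0.04. The largest value in KI-96 against WT was -0.32 for Eny2 (SE 0.10, edgeR adjusted p = 0.358), a subunit of the complex that couples transcription to RNA export, which was -0.12 with the Y-linked covariate. Of 11 genes of the nuclear envelope 0 passed in any comparison, with 1, 0 and 4 at an unadjusted p under 0.05 and medians of 0.03, -0.12 and -0.06. In KI-96 against E1, Lmnb1, which encodes lamin B1, gave -0.57 (SE 0.17, edgeR adjusted p = 0.212), Emd, which encodes emerin, gave -0.57 (SE 0.14, adjusted p = 0.178), and Syne1, whose giant protein links nucleus and cytoskeleton, gave 0.49 (SE 0.20, adjusted p = 0.295). Without KI-96 replicate 3 these values were -0.52, -0.42 and 0.19.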

How the data were processed

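Striatal RNA of 15 mice was sequenced, 1 library per mouse. The authors deposited raw read counts per gene; the submitters' processing notes name STAR, HTSeq, DESeq2 1.24.0 and the build GRCm38, without roles or settings beyond that. No source used here states the annotation release or the strand setting. Of 54232 identifiers, 54165 matched the GRCm38 annotation without their version and 52566 with it.

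Genes were tested with edgeR 4.0.16 (quasi-likelihood, robust, two-sided) in R 4.3.3, with TMM scaling, on 18278 genes passing its expression filter (minimum count 10), over all 15 libraries. P-values were adjusted over all tested genes (Benjamini-Hochberg, threshold 0.05). The test was checked on simulated data with folds larger than that of any member, which gives no measure of its power at the members' folds. CPM used TMM-scaled totals, and log2 CPM a prior count of 2. Library totals limit the precision of low genes. No pair of replicates of a group was a duplicate: over 33 pairs chi-square divided by its degrees of freedom was at least 8.80. Alternatives were DESeq2 1.42.0, limma-voom (limma 3.58.1), other scalings and filters, covariates, a block, and leaving out libraries. The covariates were the mean log2 CPM of the cortical markers and the presence of Y-linked reads. With the latter, the folds against WT rest on WT replicate 1, the only WT library without such reads. With the block, by replicate number, the folds against WT rest on WT replicates 1 to 4.

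Members and lists were chosen with earlier results of these data known. Folds named in the text are the 4 smallest p-values in each direction of each comparison, plus Rangap1 and Nup62. Levels named are the highest and lowest of each role. Members with an unadjusted p under 0.05 beyond those, members whose groups did not overlap, the ends of a role's range and the genes of the other lists were named after their values were seen. Promoter letters came from RefSeq.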

Additional observations from a re-analysis of the deposited data

Results flagged for a closer look

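Each of the 49 tested genes gives 3 groups of libraries, and in 7 of these 147 groups 1 library lay far from the rest by Dixon's test at the 95% level, which by chance happens in about 1 of 20 groups. In KI-96 it was replicate 3 for Nup160, an outer ring gene, with 18.9 CPM against 14.3 to 15.0 CPM in the others. In E1 it was replicate 3 for the importin alpha adaptor Kpna6, with 98.2 CPM against 79.7 to 81.5 CPM, and for the inner ring gene Nup188, with 20.6 CPM against 19.3 to 19.5 CPM. In WT, replicate 3 was low for the basket genes Nup153, with 43.6 CPM against 54.6 to 62.8 CPM, and Nup50, with 34.9 CPM against 42.7 to 46.1 CPM, while the basket gene Tpr was not flagged. WT replicate 1 was high for Kpna1, with 145 CPM against 114 to 124 CPM, and WT replicate 2 for Nup85, with 33.9 CPM against 24.9 to 28.4 CPM. E1 replicate 3 and WT replicate 3 are among the libraries with high cortical markers, and the part of those markers in these values was not tested.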

How the results depend on the processing

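In all 25 alternative settings, 15 of which leave out 1 library, 0 members were called in any comparison. Counts over all genes moved. In E1 against WT, where 1 gene was called, DESeq2 called 53, limma-voom 2, the replicate block 4, and 0 were called with library totals, without the filter, with only those 2 groups, without the 3 libraries with high cortical markers and with either covariate; leaving out single libraries gave 0 to 257, with 257 without E1 replicate 4 and 12 without WT replicate 1. In KI-96 against WT, where 0 were called, DESeq2 called 66, the replicate block 6 and the unfiltered fit 1, and leaving out libraries gave 0 to 11, the highest without WT replicate 1. In KI-96 against E1, where 0 were called, DESeq2 called 206, the unfiltered fit 3 and the Y-linked covariate 1, and leaving out libraries gave 0 to 190, with 190 without E1 replicate 4 and 128 without KI-96 replicate 4. The median log2 fold change of members in E1 against WT was -0.10 without the 3 libraries and -0.095 to -0.017 with single libraries left out; in KI-96 against E1 leaving out single libraries gave -0.015 to 0.10. Of 725 values of named members 6 changed sign. These were Rangap1 in E1 against WT (-0.11 without the 3 libraries, -0.038 with the Y-linked covariate), Rangap1 in KI-96 against E1 (-0.027 to 0.14 with libraries left out) and Nup62 in KI-96 against WT (-0.0092 to 0.22). The cause was not tested. Replicate numbers recur in every group. Deviations of same-numbered libraries of different groups correlated at r from -0.10 to 0.19, over 0.1 in 5 of 12 pairs. Pairs with different numbers were not compared, so whether same-numbered libraries belong together was not tested. With the block Ipo9 in E1 against WT was -0.37 and Tnpo3 in KI-96 against WT 0.17. Replicate numbers 5 to 7 occur only in WT, so folds against WT with the block rest on WT replicates 1 to 4. For Ipo9 those are the WT libraries with the higher levels. Depth limits Nup210l, Nup62cl and Kpna7 most.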
